A study of Homo sapiens with 4 samples.

Results

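The mRNAs described here encode giant proteins of the cytoskeleton, namely the non-erythroid spectrins (SPTAN1 and SPTBN1), the spectraplakins (MACF1 and DST), the plakins (PLEC, DSP, EPPK1 and PPL) and the dystrophin relative utrophin (UTRN). These 9 genes were chosen by name and found by their Ensembl identifiers in GENCODE v44, among 63677 genes in the count table. Of the 9, 8 had reads and were among the 14645 genes tested. The data came from native RNA immunoprecipitation sequencing (RIP-seq) in HCT116, an epithelial line from a human colorectal carcinoma. All cells carried a plasmid, transfected for 48 h, that encodes the origin recognition complex subunit ORC1 fused to 3xFLAG. Nuclear lysates were sonicated, and RNA was sequenced from 2 anti-FLAG precipitates (IP) and from the 2 lysates they were taken from (Input). Neither a control precipitate nor untransfected cells were analysed here, so RNA bound by ORC1-FLAG and RNA bound by beads or antibody cannot be told apart from these libraries. In its RIP of endogenous ORC1 the study reports no detectable RNA with control IgG. It also reports that most transcripts of the anti-FLAG RIP overlapped those of endogenous ORC1. By iCLIP, a method that adds UV crosslinking, it reports negligible RNA in anti-FLAG precipitates of untransfected cells. With an RNA-binding mutant of ORC1-FLAG it reports no crosslinked RNA by that method.

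Spectrins are long, flexible rods built from helical repeats, and α and β chains pair into tetramers that cross-link actin under the plasma membrane. Plakins are linker proteins that tie intermediate filaments to cell junctions, and spectraplakins join features of both families and bridge actin and microtubules. Utrophin, which also holds spectrin repeats, connects actin to the dystroglycan complex of the membrane. Their mRNAs are among the longest that epithelial cells make, and the study described ORC1-bound RNAs as long and often carrying tandem GAA. From crosslinking and in vitro binding assays it concluded that ORC1 does not contact RNA through this repeat. The comparison asks how these giant mRNAs were recovered with ORC1-FLAG, and how their recovery stood against coding length and GAA density. The study measured gene length and searched whole transcripts for the motif, whereas length and GAA of the coding sequence are used here.

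Library totals ran from 9213877 counts (Input replicate 2) to 27483148 counts (IP replicate 1). The transfected gene ORC1 was present in all 4 libraries, but at very different levels in the 2 replicates, with 333 and 5063 scaled CPM in Input replicates 1 and 2 and 1108 and 18551 in IP replicates 1 and 2. Its log2 ratios of IP to Input were 1.73 and 1.87. The study describes the plasmid insert as codon-optimized, and how many of its reads were counted under ORC1, beside endogenous mRNA, is not known. The part of this difference in ORC1 level in the results below was not tested. Of 6 epithelial markers, EPCAM, CDH1, KRT8, KRT18 and CLDN4 were present in every library and CDX1 was listed at 0 in all. Of 4 markers of other cells, PTPRC, PECAM1 and COL1A2 held at most 2 counts per library, and DES held 35 to 90. Levels are given as counts relative to the library total after scaling with TMM factors (scaled CPM), and ratios of IP to Input are on the log2 scale with 0.5 CPM added to both. A gene was called enriched or depleted at an edgeR adjusted p below 0.05 with a log2 fold change above 1 or below -1. By that definition 10.5% of all genes tested were enriched and 8.30% depleted.

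The tandem motif GAAGAAGAA was present in the coding sequence of 3 of the 9 genes, DST, DSP and UTRN, and in 12.5% of the 12542 protein-coding genes tested. Among the 604 tested genes with a coding sequence of at least 5000 bases the share was 39.7%. These 3 hold 7 such sites, and the 6 that lie with both flanks within 1 exon are shown on the coding strand of GENCODE v44 (GRCh38), with the GAA run in capitals and 21 bases on each side. In 5 of these 6 the run is read as glutamate codons, and in the first DSP site it is out of that frame. Each run is exactly 3 units long.
DST exon 18 (chr6:56640173-56640223, minus strand): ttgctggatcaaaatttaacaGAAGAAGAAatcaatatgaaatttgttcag
DST exon 31 (chr6:56630275-56630325, minus strand): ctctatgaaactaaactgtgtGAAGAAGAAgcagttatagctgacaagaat
DST exon 40 (chr6:56605400-56605450, minus strand): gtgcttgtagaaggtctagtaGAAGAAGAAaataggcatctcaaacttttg
DSP exon 23 (chr6:7579537-7579587, plus strand): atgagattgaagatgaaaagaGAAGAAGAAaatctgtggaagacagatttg
DSP exon 23 (chr6:7581330-7581380, plus strand): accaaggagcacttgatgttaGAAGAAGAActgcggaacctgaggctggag
UTRN exon 11 (chr6:144437637-144437687, plus strand): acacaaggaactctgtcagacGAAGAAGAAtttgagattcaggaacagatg

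The genes differ widely in structure. SPTAN1 (chromosome 9, 128552558 to 128633662, plus strand, GRCh38) has a coding sequence of 7434 bases in 57 exons, and SPTBN1 (chromosome 2, 54456317 to 54671446, plus strand) one of 7095 bases in 36 exons. The spectraplakins have the longest coding sequences, 22668 bases for MACF1 (chromosome 1, 39081316 to 39487177, plus strand) and 23457 bases for DST (chromosome 6, 56457987 to 56954830, minus strand). Of the plakins, PLEC (chromosome 8, 143915153 to 143976734, minus strand) codes over 13644 bases, DSP (chromosome 6, 7541338 to 7586714, plus strand) over 8616 bases and PPL (chromosome 16, 4882507 to 4960741, minus strand) over 5271 bases, the shortest of the group. UTRN (chromosome 6, 144285335 to 144853034, plus strand) has the longest genomic span, 567700 bases, and a coding sequence of 10302 bases. EPPK1 (chromosome 8, 143857324 to 143878467, minus strand), which encodes the plakin epiplakin, was listed at 0 in all 4 libraries under its identifier ENSG00000261150. Of its 50-base words, 50.8% occur more than once in its own transcript, and whether its reads were counted elsewhere was not determined, so no level is given for it.

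All 8 detected mRNAs were higher in IP than in Input in both replicates, and 7 of the 8 were called enriched. The exception was PLEC, which had an unadjusted p of 0.0253 and an edgeR adjusted p of 0.0821. The median log2 fold change of the 8 was 2.40, and that of all genes tested was 0.01. Together the 8 mRNAs took 0.307% and 0.515% of the counts of Input replicates 1 and 2, and 0.928% and 1.57% of those of IP replicates 1 and 2. Both IP levels lay above both Input levels for 8 of 8, which was the case for 33.2% of all genes tested. A replicate log2 ratio above 1 was found for 8 of 8 in each replicate, beside 13.5% of all genes in replicate 1 and 12.0% in replicate 2.

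**Figure D1:**
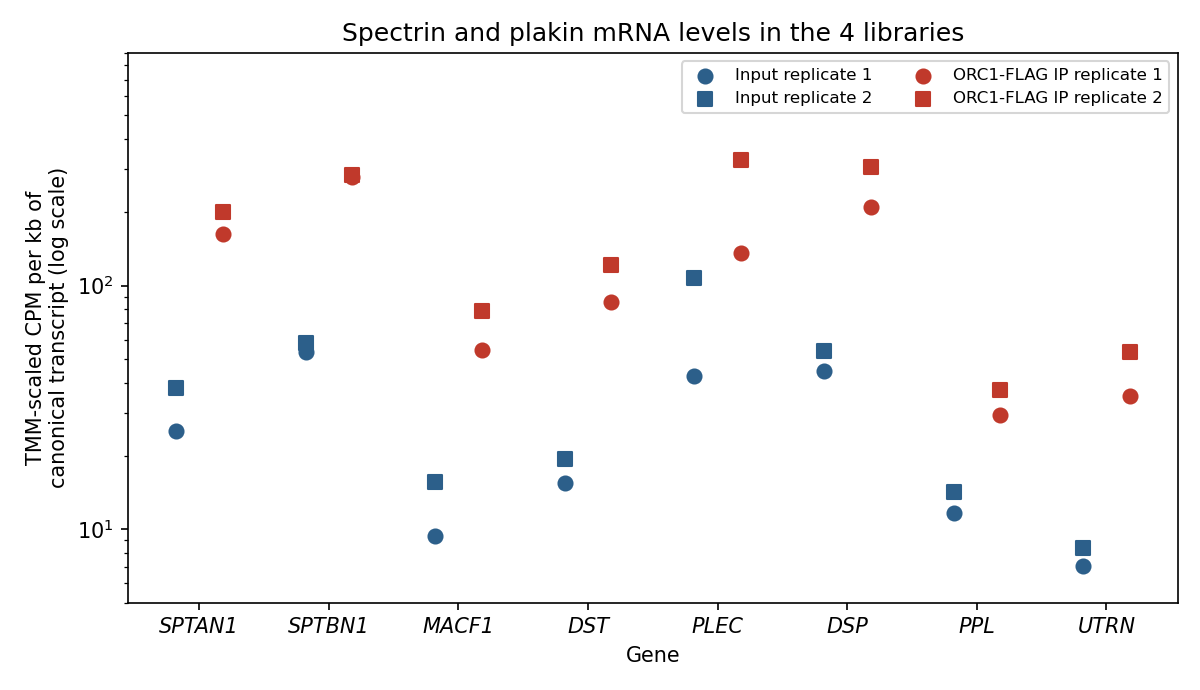
Scaled CPM per kilobase of canonical transcript (log axis) for the 8 detected mRNAs in each of the 4 libraries. For every gene both IP values lie above both Input values, and PLEC has the widest gap between its Input replicates (42.4 and 108).

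SPTAN1 encodes αII-spectrin, the α chain of non-erythroid tetramers. It held 1284 and 1583 scaled CPM in IP replicates 1 and 2, and 199 and 299 in the Inputs. Its log2 ratios were 2.69 and 2.40, and edgeR gave a log2 fold change of 2.53 ± 0.33 (SE, adjusted p = 0.0105, from 2 IP and 2 Input libraries here and below). SPTBN1 encodes its common partner βII-spectrin. It held 2839 and 2894 scaled CPM in IP and 544 and 594 in Input, with little difference between replicates. Its log2 ratios were 2.38 and 2.28 and its edgeR log2 fold change 2.33 ± 0.29 (SE, adjusted p = 0.0105). Reads of SPTAN1 over reads of SPTBN1 within a library, a ratio that no scaling can alter, were 0.366 and 0.503 in Input and 0.452 and 0.547 in IP. The change of this ratio from Input to IP was 0.31 and 0.12 on the log2 scale in the 2 replicates, and the IP and Input values overlapped.

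MACF1 and DST are the spectraplakins, which link microtubules to actin, and DST isoforms of epithelia also anchor keratin at hemidesmosomes. MACF1 held 1329 and 1913 scaled CPM in IP and 229 and 379 in Input. Both levels were higher in replicate 2, in IP as in Input, and the log2 ratios were 2.54 and 2.33. The edgeR log2 fold change of MACF1 was 2.42 ± 0.37 (SE, adjusted p = 0.0116). DST held 2106 and 2987 scaled CPM in IP and 382 and 479 in Input, with log2 ratios of 2.46 and 2.64. Its edgeR log2 fold change, 2.56 ± 0.33 (SE, adjusted p = 0.0105), was the largest of the 8 and ranked 22 among all genes tested. The change of the MACF1 to DST read ratio from Input to IP had opposite signs in the replicates, at 0.08 and -0.31 on the log2 scale.

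Among the plakins, recovery was less even. DSP encodes desmoplakin, which fastens keratin filaments to desmosomes. It held 2034 and 2969 scaled CPM in IP and 433 and 521 in Input, with log2 ratios of 2.23 and 2.51. Its edgeR log2 fold change was 2.39 ± 0.33 (SE, adjusted p = 0.0105). PLEC encodes plectin, a linker of intermediate filaments to many cell structures. It held 2015 and 4857 scaled CPM in IP and 628 and 1596 in Input, so that replicate 2 was the higher library on both sides. The log2 ratios, 1.68 and 1.61, differed little, whereas the edgeR fit without pairing gave 1.63 ± 0.57 (SE), the widest error of the 8. With the RIP replicate number as a block, the log2 fold change of PLEC was 1.64 with an edgeR adjusted p of 3.76e-06, and PLEC was then called enriched, beside 13.4% of all genes tested. It was also called without IP replicate 1 (2.18) or without Input replicate 2 (2.31), and lay at 1.15 without Input replicate 1 and at 0.92 without IP replicate 2. PPL encodes periplakin, a component of desmosomes and the cornified envelope. It held 183 and 233 scaled CPM in IP and 72.8 and 89.1 in Input, the lowest IP levels of the 8. Its log2 ratios were 1.32 and 1.38 and its edgeR log2 fold change 1.36 ± 0.26 (SE, adjusted p = 0.0160), also the lowest. Under scaling by library size alone this value was 0.77 and PPL was not called.

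Read ratios within libraries gave the same order of the plakins. Reads of PLEC over reads of DSP were 1.45 and 3.07 in Input and 0.991 and 1.64 in IP, a change of -0.55 and -0.91 on the log2 scale. Reads of PPL over reads of DSP were 0.168 and 0.171 in Input and 0.0900 and 0.0786 in IP, a change of -0.90 and -1.12, and here IP and Input did not overlap. With 2 libraries per group an exact permutation test of such a ratio cannot reach a p below 0.05, so these changes are given as values.

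UTRN encodes utrophin, the widely expressed relative of dystrophin. It held 456 and 688 scaled CPM in IP and 91.2 and 108 in Input, with log2 ratios of 2.32 and 2.67. Its edgeR log2 fold change was 2.52 ± 0.31 (SE, adjusted p = 0.0105). The dystrophin gene DMD itself held at most 3 counts in any library. The UTRN to DST read ratio changed by -0.14 and 0.03 on the log2 scale from Input to IP.

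**Figure D2:**
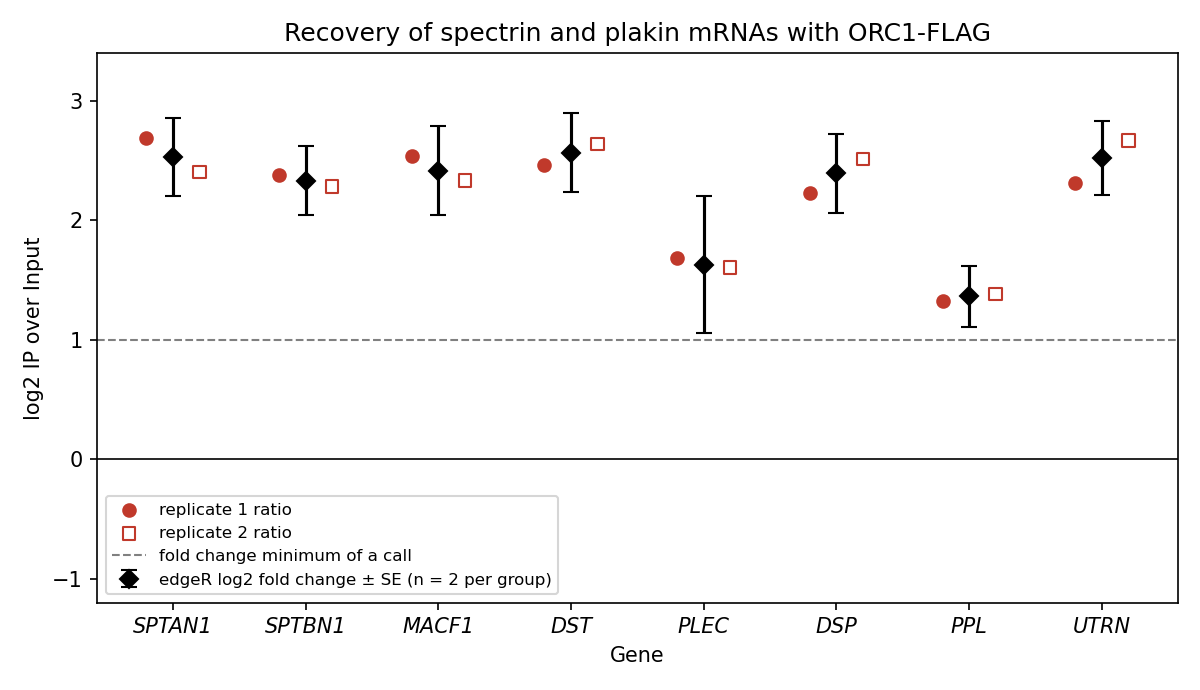
The log2 ratio of IP to Input for each replicate (circles and open squares) and the edgeR log2 fold change with its SE (diamonds, n = 2 libraries per group) for the 8 detected mRNAs. SPTAN1, SPTBN1, MACF1, DST, DSP and UTRN lie between 2.33 and 2.56, and PLEC (1.63) and PPL (1.36) lie below them.

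The fold changes of the 6 mRNAs other than PLEC and PPL spanned 0.23 on the log2 scale, less than the SE of any 1 of them. With the replicate block they spanned 0.22, with SEs of 0.184 to 0.195. Their order differed between replicates, with SPTAN1 highest by log2 ratio in replicate 1 and UTRN in replicate 2. Per kilobase of canonical transcript, mean Input levels ran in the order PLEC (75.1 scaled CPM per kb), SPTBN1 (55.7), DSP (49.1), SPTAN1 (31.6), DST (17.4), PPL (12.9), MACF1 (12.5) and UTRN (7.71). In this order the libraries of PLEC overlapped those of SPTBN1 and DSP, those of SPTBN1 overlapped those of DSP, and those of MACF1 overlapped those of PPL and DST. The order of the means in IP was SPTBN1 (281 scaled CPM per kb), then DSP (258), PLEC (232), SPTAN1 (182), DST (103), MACF1 (66.6), UTRN (44.3) and PPL (33.3). Here the libraries of PLEC overlapped those of SPTBN1, DSP and SPTAN1, those of DSP overlapped those of SPTBN1, and those of PPL overlapped those of UTRN. PLEC was the highest of the 8 in both libraries of replicate 2, whereas in replicate 1 it stood below SPTBN1 and DSP in Input and below SPTBN1, DSP and SPTAN1 in IP. PPL stood above UTRN in both Inputs and was the lowest of the 8 in both IP libraries. These levels assume that the canonical transcript is the one made, which the counts do not show.

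All 8 mRNAs belong to the longest decile of coding sequences, in which 46.5% of genes were enriched and the median log2 fold change was 1.07. Over the 596 other genes with a coding sequence of at least 5000 bases, 57.6% were enriched and the median was 1.27. Each of the 8 was then read beside the tested genes with 0.8 to 1.2 times its own coding length. Coding length here and GAA density below are those of the canonical transcript, which may not be the one made. SPTAN1 lay above 98.4% of 258 such genes (median log2 fold change 1.29) and SPTBN1 above 97.3% of 299 (median 1.23). DSP lay above 96.6% of 176 (median 1.33) and UTRN above 97.9% of 97 (median 1.48). PLEC lay above 63.9% of 61 (median 1.51) and PPL above 72.3% of 552 (median 1.03). MACF1 and DST had 6 genes of near length each, with a median of 2.20. These include the other spectraplakin and the spectrin-repeat genes SYNE1 (2.39) and SYNE2 (2.36), so this median is in part that of relatives. Recovery of both spectrins, DSP and UTRN was therefore 1.04 to 1.24 above the median of genes of like length on the log2 scale. That of MACF1 and DST was 0.21 and 0.36 above it, and that of PLEC and PPL 0.12 and 0.34. Across the 8, log2 fold change and coding length had a Spearman rho of 0.548, a description over genes that share the same 4 libraries. Across the 12542 protein-coding genes rho was 0.589, and across the 604 long ones, the class that holds all 8, it was 0.192.

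**Figure D3:**
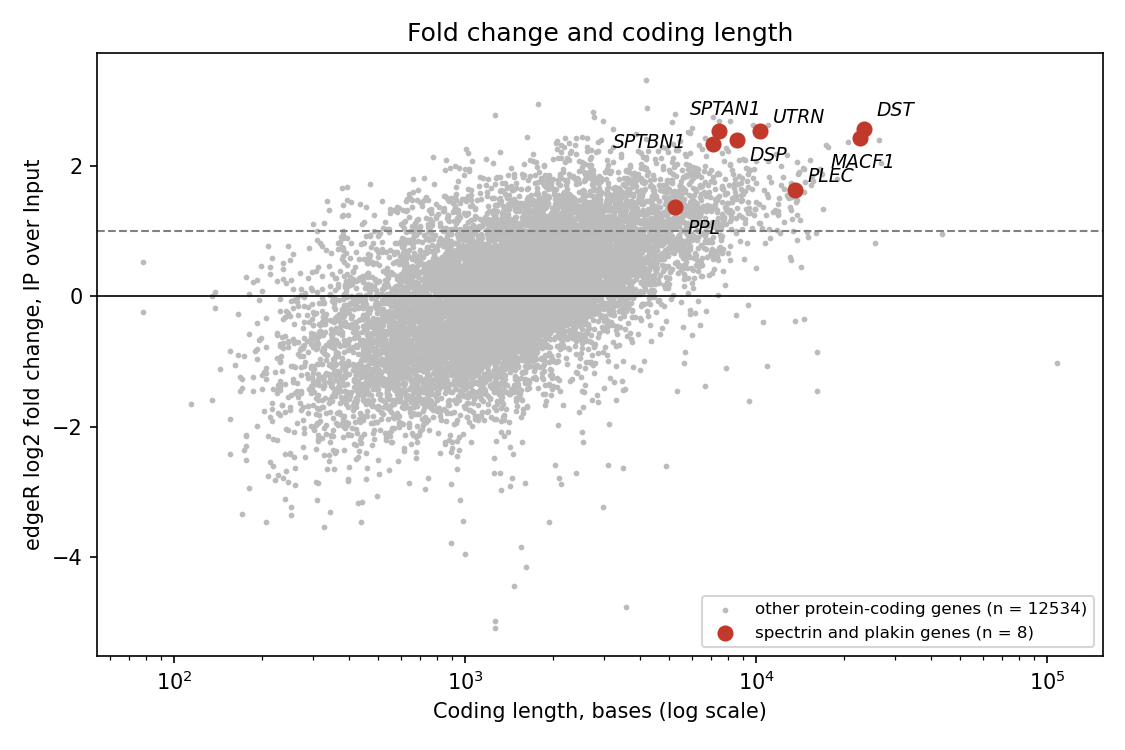
The edgeR log2 fold change of IP over Input against coding length (log axis) for all tested protein-coding genes, with the 8 spectrin, plakin and utrophin mRNAs in red. The 8 lie at the long end, and DST (23457 bases, 2.56) and SPTBN1 (7095 bases, 2.33) have similar fold changes at very different canonical lengths. The counts do not show whether the canonical transcripts are the ones made.

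GAA density separated the 8 in another way. GAA, counted on the coding strand in any frame, occurred 37.9 times per kilobase of coding sequence in UTRN, 37.0 in DST, 36.8 in DSP, 33.6 in SPTAN1, 33.5 in MACF1, 29.7 in SPTBN1, 27.5 in PPL and 13.3 in PLEC. The median was 22.8 over all protein-coding genes tested and 25.8 over those with a coding sequence of at least 5000 bases. PLEC, at a density above only 12.2% of these long genes, was the single member of the 8 below their median. The unmeasured EPPK1 had the lowest density of the 9, at 8.25 per kilobase. GAAGAA, the tandem of 2 units, occurred in all 9 coding sequences, beside 97.5% of the long genes and 70.5% of all protein-coding genes tested. Per kilobase it was most frequent in DSP (3.02), UTRN (2.81), SPTAN1 (2.42) and DST (2.30).

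Much of the GAA stood outside the glutamate frame. In DST, 59.2% of all GAA were glutamate codons, in MACF1 56.3% and in UTRN 53.6%, whereas in PPL the share was 29.0% and in PLEC 16.6%. SPTAN1 (45.2%), DSP (45.4%) and SPTBN1 (43.6%) lay between, and the median of long coding sequences was 46.7%. Glutamate made up 10.1% to 14.2% of codons in all 8, above the median of 7.32% in long coding sequences. PLEC and PPL were the richest in glutamate (12.8% and 14.2% of codons). They spelled it with GAA in only 5.16% and 16.8% of cases, against 34.2% (SPTBN1) to 65.1% (DST) in the other 6. In long coding sequences the median was 50.2%. SPTBN1, SPTAN1 (40.1%) and DSP (47.7%) also lay below this median, and MACF1 (53.3%), UTRN (58.9%) and DST lay above it. The GC content of the coding sequence was highest in PLEC (66.9%) and PPL (60.6%) and lowest in DST (41.6%).

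The fold changes were next set against GAA density. The 604 long genes were ordered by GAA per kilobase and divided into 4 bins of 151. From the bin with the least GAA to that with the most, the median log2 fold change was 0.85, 1.06, 1.34 and 1.65. The share enriched was 27.8% in the lowest bin and 88.1% in the highest. SPTAN1, MACF1, DST, DSP and UTRN belong to the highest bin and lay above 91.3% to 95.3% of its other 150 genes. SPTBN1, in the third bin, lay above 99.3% of the others, and PPL, in the same bin, above 52.0%. PLEC belongs to the lowest bin and lay above 92.0% of it. PLEC thus stood near the middle of genes of its length and high among genes of its GAA density, and PPL near the middle of its GAA bin.

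Across the 8, log2 fold change and GAA density had a Spearman rho of 0.810. The reverse complement TTC, a control sequence, gave 0.905, and GC content gave -0.833. These sequence measures move together in the 8, and their separate parts were not tested. Over the 604 long genes rho was 0.501 for GAA, -0.02 for TTC and -0.288 for GC content, and over all 12542 protein-coding genes it was 0.249, -0.156 and -0.055. These correlations are descriptions over genes that share libraries and base composition.

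**Figure D4:**
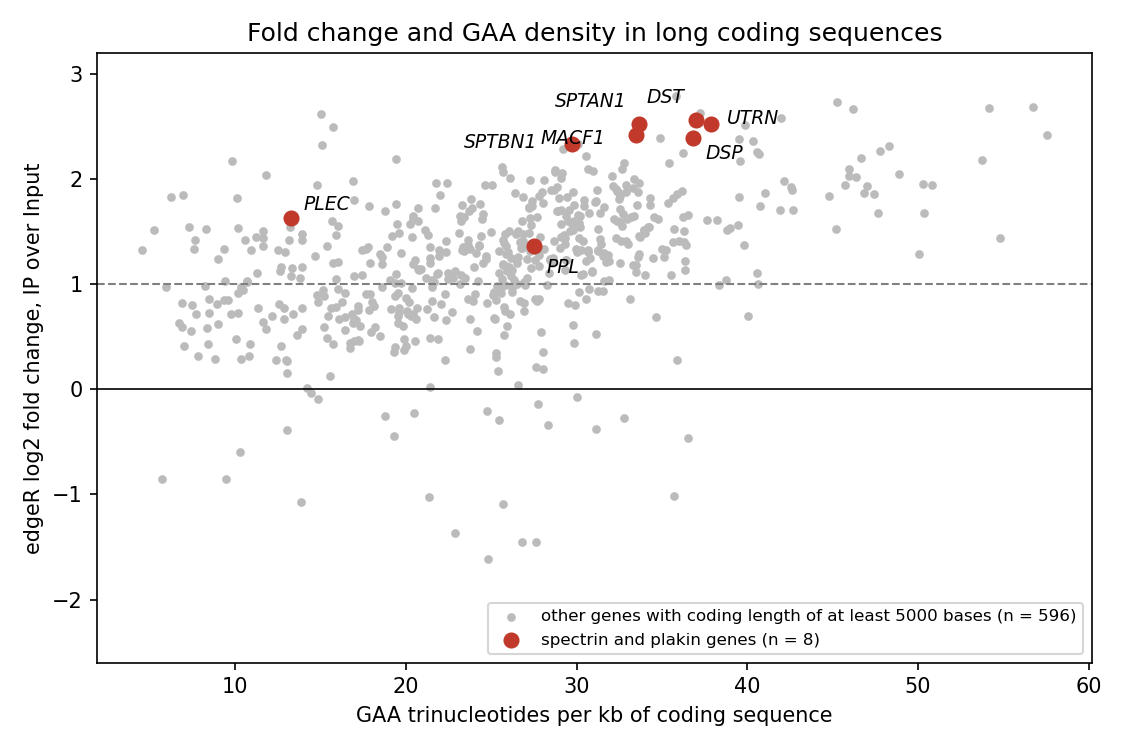
The edgeR log2 fold change of IP over Input against GAA per kilobase of coding sequence for tested genes with a coding length of at least 5000 bases. The 8 spectrin, plakin and utrophin mRNAs are in red, with PLEC at 13.3 GAA per kilobase and the other 7 from 27.5 to 37.9.

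Most relatives that were not among the 9 were enriched too. Of 12 other spectrin-repeat and plakin genes, 11 were tested and 8 were enriched, with a median log2 fold change of 1.42. The median coding length of the 11 was 6102 bases. Of the 596 genes outside the 9 with a coding sequence of at least 5000 bases 57.6% were enriched, and of all genes tested 10.5%. The nesprins SYNE1 and SYNE2, giant spectrin-repeat proteins of the nuclear envelope, had edgeR log2 fold changes of 2.39 ± 0.30 (SE, adjusted p = 0.0105) and 2.36 ± 0.35 (SE, adjusted p = 0.0108). SYNE1 held 1731 and 2052 counts in IP and 274 and 263 in Input. The shorter SYNE3 was at 1.11. Of the β-spectrins, SPTB was at 1.31 and SPTBN5 at 2.62, the last on 45 and 53 counts in IP and 7 and 5 in Input, and SPTBN4 (1.16, edgeR adjusted p = 0.0898) was not called. EVPL, which encodes the plakin envoplakin, was at 1.46. The α-actinins ACTN1 (1.37) and ACTN4 (1.42), actin cross-linkers with short spectrin rods, were enriched as well, and ACTN2 (1.61, edgeR adjusted p = 0.0808) and DRP2 (0.61) were not called. DMD had too few counts to test. With the replicate block 10 of these 11 were enriched, SPTBN4 (1.17, edgeR adjusted p = 0.000449) and ACTN2 (1.63, edgeR adjusted p = 0.00211) among them. With scaling by library size alone 2 of the 11 were enriched. Of all 14645 genes tested, 13.4% were enriched with the block and 380 genes with library size alone.

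Smaller shares of the partners of the same structures were enriched than of these relatives, and 10.5% of all genes tested were. With scaling by library size alone 380 of the 14645 genes tested were enriched and 3257 depleted. Of 17 tested partners of the spectrin skeleton (ankyrins, adducins, band 4.1 proteins, tropomodulins and actins), 2 were enriched, with a median of 0.23. That share was near that of all genes tested. The 2 were the ankyrins ANK3 (1.32 ± 0.32, SE, edgeR adjusted p = 0.0300) and ANK2 (1.26 ± 0.35, SE, edgeR adjusted p = 0.0423), which attach spectrin to membrane proteins, and with scaling by library size alone neither was called and 1 other partner was depleted. The cytoplasmic actin ACTG1, with many processed copies that make its counts uncertain, was at 0.23. Of 12 tested partners at microtubule ends, 5 were enriched, with a median of 0.69, and with scaling by library size alone 2 were enriched and 1 depleted. The 5 included DCTN1 (1.82), the plus-end protein CLIP1 (1.78), CAMSAP2 (1.54) and APC (1.54), while the end-binding protein MAPRE1 (0.20) was not called.

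For the filaments and junctions that plakins hold, calls are read beside 10.5% of all genes tested enriched and 8.30% depleted. With the replicate block both shares were 13.4%. With scaling by library size alone 380 of the 14645 genes tested were enriched and 3257 depleted. Of 12 intermediate filament genes 2 were enriched, the lamins LMNA (1.35 ± 0.28, SE, edgeR adjusted p = 0.0192) and LMNB1 (1.16 ± 0.30, SE, edgeR adjusted p = 0.0355). The epithelial keratin KRT8, a gene with many pseudogenes, was at 0.89 and not called. With the replicate block 4 of the 12 were enriched, and with scaling by library size alone 0, so that neither lamin was then called. Of 7 hemidesmosome genes, 1 was enriched, the laminin chain LAMA3 (1.73 ± 0.35, SE, edgeR adjusted p = 0.0190), with 4 enriched under the replicate block, 2 by DESeq2 and 0 with scaling by library size alone. The integrin ITGB4, the plectin-binding chain at hemidesmosomes, was at 0.77. Of 8 tested desmosome genes 0 were called by edgeR. Among them 1 at 0.81 and 1 at -0.96 had an edgeR adjusted p below 0.05 but missed the fold change minimum. By DESeq2 or limma voom 0 were called. With scaling by library size alone 1 of the 8 was depleted. The desmosomal cadherin DSG2 was at -0.13, beside 2.39 for DSP of the same junction. Of 8 tested genes of the dystrophin complex 1 was depleted, the sarcoglycan SGCB (-1.36 ± 0.34, SE, edgeR adjusted p = 0.0321), and DAG1, which encodes dystroglycan, was at 0.33 beside 2.52 for UTRN. With scaling by library size alone 3 of these 8 were depleted. The median coding length was 2602 bases for the tested desmosome genes and 1620 bases for those of the dystrophin complex, all shorter than that of PPL. It was 1405.5 bases for the intermediate filament genes and 3582 bases for those of the hemidesmosome. For the spectrin skeleton partners it was 2202 bases and for the microtubule end partners 4077 bases. How much of the differences between lists went with coding length was not tested.

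**Figure D5:**
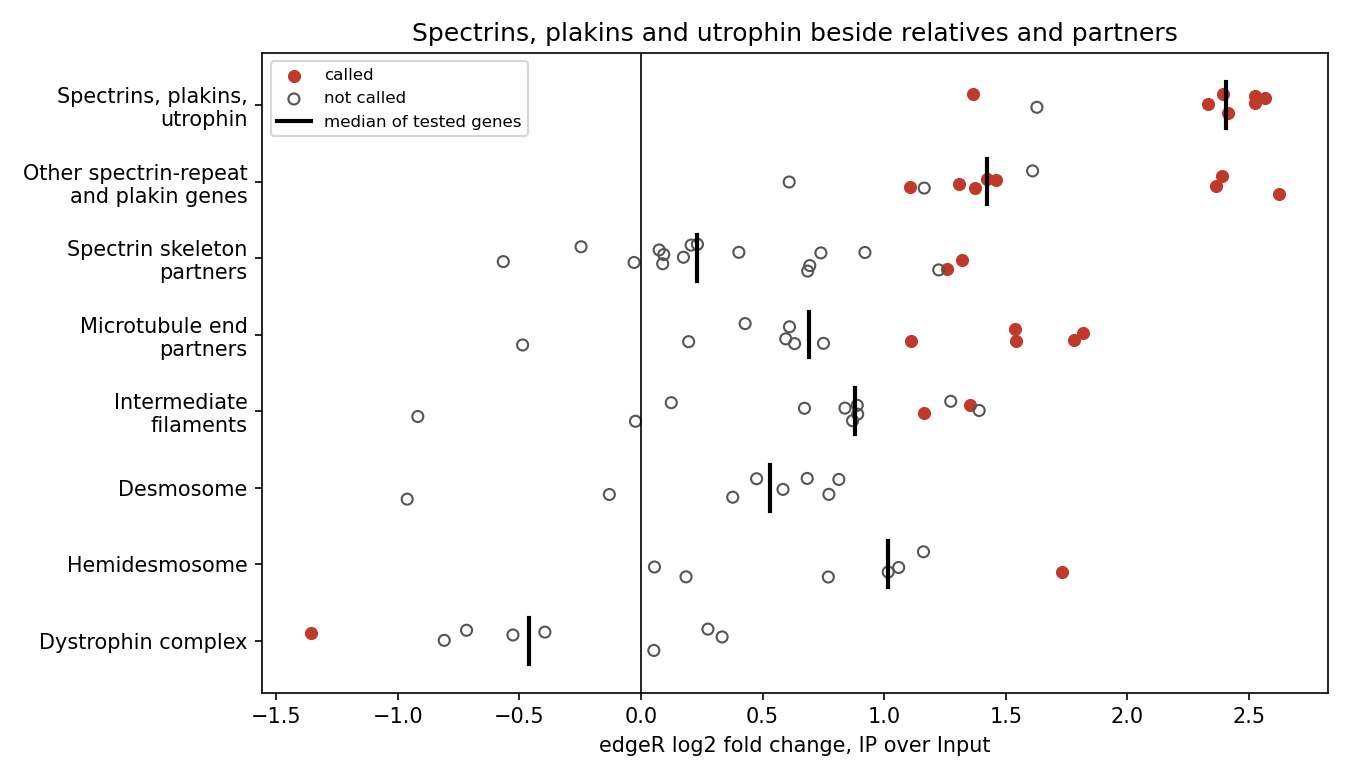
The edgeR log2 fold change of IP over Input for the 8 spectrin, plakin and utrophin mRNAs, for other spectrin-repeat and plakin genes, and for lists of partners (filled points called, open points not called, vertical bars medians; the vertical scatter has no meaning). Medians range from 2.40 for the 8 to -0.46 for the dystrophin complex.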

How the data were processed

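Raw counts per gene for 4 libraries were deposited by the authors without normalization. The submitters' processing notes and the study's methods name Trimmomatic for trimming, STAR for alignment (hg19) and featureCounts for counting. The annotation release, the strand setting and the handling of reads with several alignments are not given in the sources used here. Genes were joined by Ensembl identifier to GENCODE v44 on GRCh38, a different build, which gave coordinates, canonical transcripts and sequences. IP was compared with Input by the quasi-likelihood test of edgeR 4.0.16 (R 4.3.3), with TMM scaling, filterByExpr and group as the only term, and Benjamini-Hochberg adjustment over 14645 genes. SE was derived from the fold change and F statistic. The fold change minimum of 1 was applied to the estimate. Input and IP libraries of the same number belong to the same RIP replicate per the labels, and deviations from group means correlated across genes (Pearson r = 0.645), so the replicate number was used as a block in a further fit. The study's methods call the anti-FLAG sequencing duplicate experiments and state that experiments were repeated independently, but neither they nor the labels say that separate cultures were used, and the p-values measure the spread between these libraries. Reads carry no molecular identifiers.

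Alternatives were RLE factors, library size only, upper-quartile scaling, no count filter, limma voom (limma 3.58.1), DESeq2 1.42.0, a minimum of 1 CPM in 2 libraries, the block, and leaving out each library. The fits were tested on simulated data. Named genes were the 9, all tested relatives on the list (2 others are not reported here), and of each partner list up to 4 called genes with the largest fold change and the uncalled gene highest in Input. The genes, lists and tests were chosen with earlier results of these data known. Antisense exons overlap 4.49% of the exonic sequence of SPTBN1, 1.77% of that of SPTAN1 and less of the others.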

Additional observations from a re-analysis of the deposited data

How the results depend on the processing

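All 8 mRNAs stayed above 0 in the 12 alternatives, and 88 of the 96 single values were called enriched. The 8 exceptions were PPL with library size only (0.77) and PLEC in 7 alternatives. PLEC was called with DESeq2 (1.62), no count filter (1.68), the replicate block (1.64), and without IP replicate 1 (2.18) or Input replicate 2 (2.31). It was at 1.15 without Input replicate 1 and at 0.92 without IP replicate 2, and not called in either. Between 6 (library size only) and 8 of the 8 were called.

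The median log2 fold change of the 8 was 2.40. It was 2.38 with DESeq2, 2.38 with RLE factors, 2.37 with at least 1 CPM in 2 libraries, 2.42 with no count filter, 2.24 with the upper quartile and 1.81 with library size only, where the median of all genes was -0.59. Leaving out 1 library gave 2.22 to 2.70. With library size only 380 genes were enriched and 3257 depleted, in place of 1542 and 1215, and 10 in place of 19 genes of the partner and relative lists were called. Of these 10, 4 were enriched and 6 depleted, in place of 18 and 1. With upper-quartile scaling 1080 were enriched and 1542 depleted. With the replicate block 1960 were enriched and 1957 depleted. Leaving out 1 library gave 1291 to 1936 enriched, 846 to 1801 depleted and 18 to 28 list genes called. Over the 8, rho was 0.405 with exonic length in place of coding length, and 0.50 with GAAGAA in place of GAA. With exonic length rho was 0.298 over the 12542 protein-coding genes and 0.102 over the 604 long ones, lower than with coding length. A pseudocount of 2 CPM moved no replicate ratio of the 8 by more than the spread between replicates. Depth did not limit these mRNAs, whose counts were at least 1041 in every library.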
